A study of Mus musculus with 4 samples.

Results

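The genes described here encode the machinery that moves newly made secretory and membrane proteins into the ER and carries them between the ER and the Golgi. They were chosen by symbol, as every gene of the count table named for the signal recognition particle (SRP) and its receptor, the Sec61 translocon with Sec62 and Sec63, the TRAP complex (Ssr genes), the signal peptidase complex, the COPII and COPI coats with Sar1, the Sec22 SNAREs, the p24 cargo receptors (Tmed genes), and the KDEL receptors. This gave 65 of the 27179 genes of the table, in 10 groups by role. The rule reads symbols and no measured value. RNA-Seq was performed on group 2 innate lymphoid cells (ILC2s), which lack antigen receptors and secrete type 2 cytokines, sorted from the large intestine of C57BL/6 mice. No genetic change or transgene is given for these mice. The study's methods give an age of 6 to 14 weeks in one place and of 6 to 8 weeks for C57BL/6J mice in another, and name both sexes but also males only for C57BL/6J, so the age and sex behind these libraries are not settled. For every library the sorted ILC2s had been grown for 5 days with 10 ng/mL each of IL-33, IL-25, IL-7, and IL-2. Then 2 libraries were made after vehicle and 2 after 100 μM deoxycholic acid (DCA), a bile acid that gut bacteria make. The deposited design text gives 16 hours of treatment and the study's methods give 24 hours. The cells were an expanded culture of sorted cells without epithelium or other lamina propria cells around them, and the sources used here do not say whether the libraries of a treatment came from separate mice or cultures. The p-values below therefore measure the spread between these libraries, which may be technical.

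A protein bound for secretion is recognized by SRP as its signal sequence leaves the ribosome, docks at the SRP receptor, and passes through the Sec61 channel, where signal peptidase removes the signal sequence. Folded cargo then leaves the ER in COPII vesicles, with p24 proteins among its cargo receptors, and COPI vesicles return escaped ER residents that KDEL receptors have captured in the Golgi. Cells that secrete much protein, cytokine-producing lymphocytes among them, depend on this route, and in many cell types the unfolded protein response adjusts its genes.

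The counts added up to between 26564059 and 35838342 in 3 libraries and to 244165712 in DCA replicate 2, and 12302 to 15592 genes had a count. All 10 ILC2 markers examined reached a mean of 1 CPM (counts scaled to a common library size), and their summed level lay at 15143 to 16474 CPM with vehicle and at 17674 to 20090 CPM with DCA. Both DCA values exceeded both vehicle values for 4 of the 10, lay below both for 2, and overlapped for 4. Over all genes tested the shares were 18.9% above and 14.5% below. The sum was carried by Il5, at 8846 and 7707 CPM with vehicle and at 9952 and 12358 CPM with DCA. Il1rl1, the IL-33 receptor gene, was at 831 and 875 CPM with vehicle and at 598 and 534 CPM with DCA, and Klrg1 was at 687 and 677 CPM with vehicle and at 463 and 357 CPM with DCA, both lower in each DCA library.

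Among markers of other cell types, the highest sum was that of 4 B cell genes, at 49.5 to 86.4 CPM with vehicle and at 51.4 to 64.1 CPM with DCA. It came from Cd79b, at 37.4 to 55.0 CPM in every library, and Ighm, at 2.40 to 31.3 CPM, while Cd79a and Ms4a1 were at or near 0. The other sums were 8.02 to 9.03 CPM with vehicle and 5.00 to 5.75 CPM with DCA for T cells (5 genes, Cd4 and Cd8a at 0 in every library), 0 to 4.01 and 0.0928 to 0.600 CPM for plasma cells (6 genes, Mzb1, Igkc, and Tnfrsf17 at 0), and 23.9 to 24.6 and 7.30 to 10.2 CPM for macrophages and monocytes (5 genes, Csf1r at 0, nearly all from Cd68). They were 8.27 to 13.5 and 7.73 to 9.02 CPM for epithelial cells (6 genes, Krt20 at 0), 3.49 to 4.61 and 0.379 to 4.70 CPM for mast cells and basophils (5 genes, Fcer1a and Ms4a2 at 0), and 0 and 0 to 1.48 CPM for ILC3s (3 genes, Il22 and Ncr1 at 0). The ILC2 sum was higher, and the T cell and macrophage sums were lower, in each DCA library than in each vehicle library, and their part in the results below was not tested.

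The early secretory genes were abundant in these ILC2s. A mean of at least 1 CPM over the libraries was reached by 61 of the 65 genes, and these had a median level of 135 CPM, compared with 26.3 CPM over the 11179 genes of the table that passed the same filter. Of the 61 genes, 53 lay above the median gene, 39 in the top 25%, and 26 in the top 10%, with mean levels from 3.03 CPM for Copz2 to 1393 CPM for Spcs3. All 65 together added up to 12123 and 12181 CPM with vehicle and to 11763 and 13681 CPM with DCA. DCA replicate 1 had the lowest and DCA replicate 2 the highest of these sums, so the treatments overlapped. CPM here are counts scaled by library size with edgeR's TMM factors, and in bulk RNA a lower level can stem from fewer cells that express a gene or from less RNA per cell, which cannot be told apart.

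**Figure D1:**
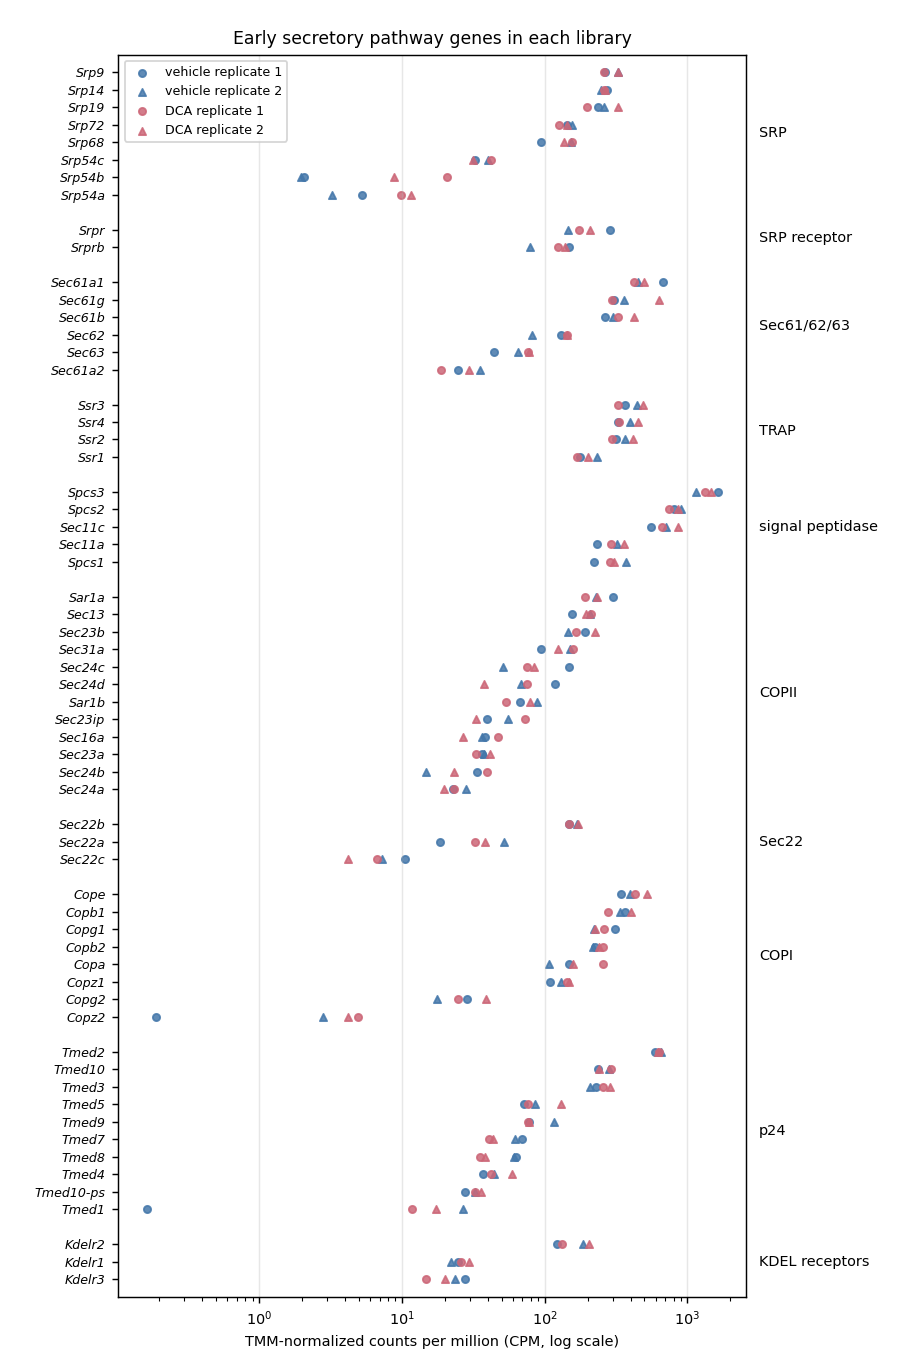
Level of the 61 early secretory pathway genes that passed the filter, in TMM-normalized CPM on a log axis, with 1 row per gene, circles for replicate 1 and triangles for replicate 2, and vehicle in blue and DCA in red. The points of most genes lie close together, from 3.03 CPM on average for Copz2 to 1393 CPM for Spcs3, and the widest gap within a treatment is that of Tmed1.

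DCA was compared with vehicle to find whether the transcripts of this route differed after the treatment. By edgeR's quasi-likelihood test with Benjamini-Hochberg adjustment over all 11179 genes, 0 of the 61 genes had an adjusted p under 0.05 (adjusted p 0.998 to 1.00), against a background of 0% of all genes tested. At an unadjusted p under 0.05 there was 1 early secretory gene, Srp54b, higher with DCA, and the background was 4.28% (479 genes), 2.59% higher and 1.7% lower. DESeq2, which called 127 of 10962 genes (1.16%), also called 0 of the 61, with Srp54b the lowest at an adjusted p of 0.183. The median log2 fold change was 0.06 over the early secretory genes and 0.01 over all genes tested. Of the 61 genes, 41 had a positive value and 20 a negative one (67.2% positive, against 51.1% of all genes tested). Of the positive values, 11 turned negative under some other scaling or test with all libraries kept, each at most 0.075 in size. With median-of-ratios scaling and with DESeq2 the median of the early secretory genes was 0.02, so the share of positive values depends on the scaling.

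Fold changes were smaller among these genes than over the table. The median size of the log2 fold change was 0.21, compared with 0.38 over all genes tested, and the middle 50% of values ran from −0.14 to 0.26, compared with −0.37 to 0.39. Only Srp54a, Srp54b, and Copz2 differed by more than 1 on the log2 scale, which is 4.92% of the 61 against 18.1% of all genes tested. Both DCA libraries lay above both vehicle libraries for 12 of the genes (background 18.9%) and below both for 4 (background 14.5%), and for the other 45 the libraries overlapped. With 2 libraries against 2, an exact permutation test (two-sided) cannot give a p below 0.333, so separation of the libraries alone could not pass the threshold.

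The absence of calls does not show that the levels were alike, and the interval of each difference gives what these libraries allow. By limma on log2(CPM + 1), which understates the change of low genes, the 95% interval of the fold change lay within 2-fold in either direction for 35 of the 61 early secretory genes (57.4%), compared with 22.7% of all genes tested. Among genes at or above a mean level of 10 CPM the shares were 61.4% and 32.1%. The libraries of 1 treatment were also closer for these genes, with a median ratio between the vehicle libraries of 1.28, compared with 1.54 over all genes, and of 1.22 and 1.37 between the DCA libraries. These figures move with level, since among genes at or above a mean level of 10 CPM the median size of the log2 fold change was 0.21 for the early secretory genes and 0.29 for all. Whether they differ from other genes of their level was not tested.

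**Figure D2:**
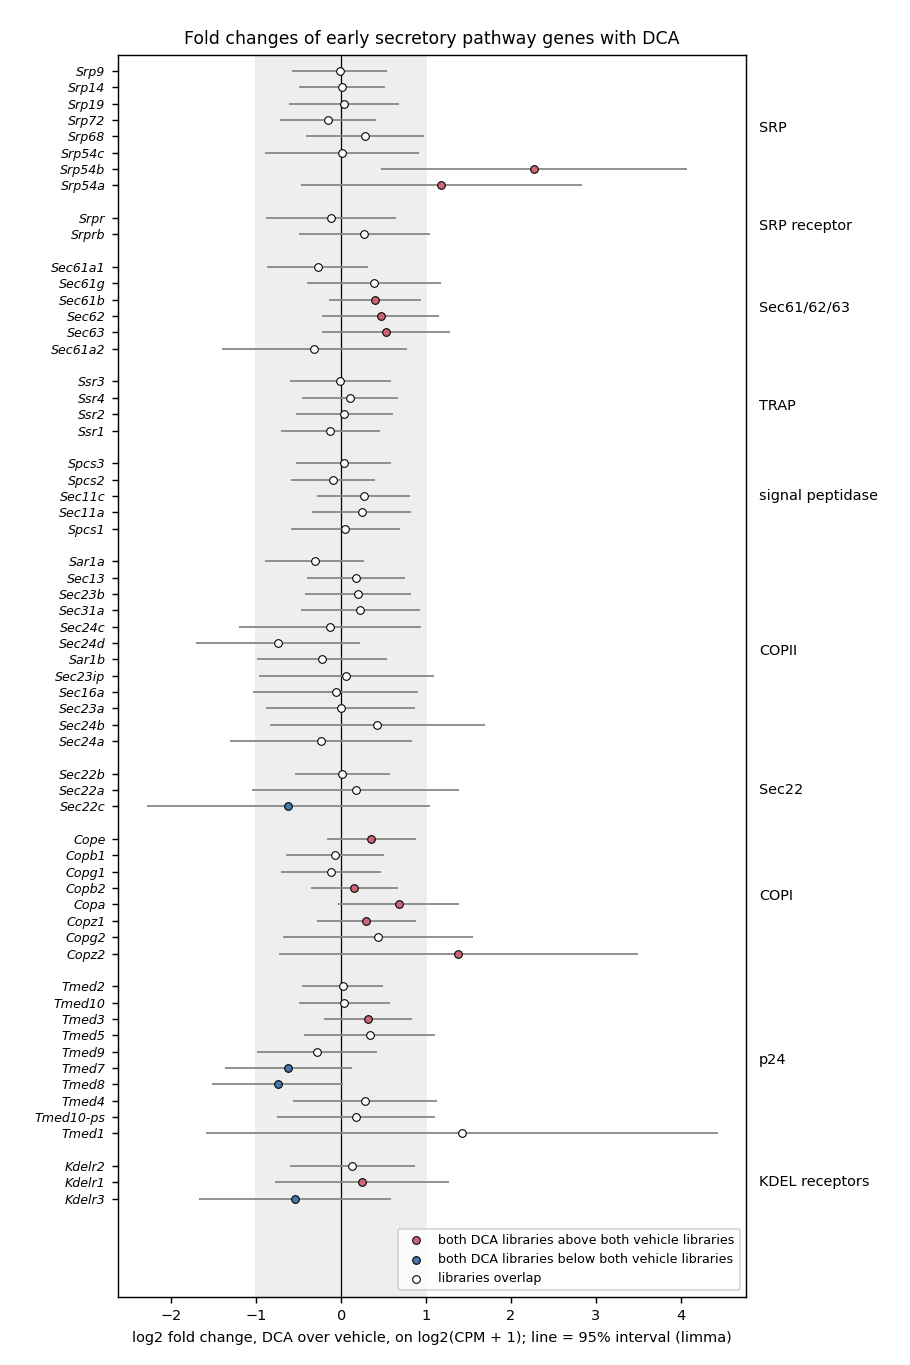
Log2 fold change of each gene with DCA over vehicle on the log2(CPM + 1) scale, from limma, with its 95% interval as a line and the genes ordered by group and level. The gray band marks 2-fold in either direction, and 35 of the 61 intervals lie inside it. Red points are the 12 genes with both DCA libraries above both vehicle libraries, and blue points the 4 with both below.

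SRP binds the signal sequence through its Srp54 subunit, holds translation through Srp9 and Srp14, and also contains Srp19, Srp68, and Srp72. The 8 SRP genes summed to 1055 and 1191 CPM with vehicle and to 1073 and 1251 CPM with DCA, and their median log2 fold change was 0.05. Srp9, the most abundant, was at 266 and 329 CPM with vehicle and at 259 and 329 CPM with DCA (log2 fold change −0.02, SE 0.23). Srp14, Srp19, Srp68, and Srp72 had log2 fold changes between −0.15 and 0.24, with overlapping libraries for each.

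In the mouse the signal-binding subunit of SRP has 3 near-identical genes. Srp54a (GRCm38, chr12:55080476-55115367), Srp54b (chr12:55155104-55189213), and Srp54c (chr12:55230118-55279331) are neighbors on the same chromosome. Their GENCODE M21 coding sequences are 1512 bases long each. Those of Srp54a and Srp54b are identical, so that every 150-base window of one occurs in the other, and each differs from Srp54c at 6 positions (99.6% identity), with 61.7% of the 150-base windows shared. A 90-base stretch, coding positions 876 to 965, is shown because it holds 3 of those positions, in capitals.
Srp54a: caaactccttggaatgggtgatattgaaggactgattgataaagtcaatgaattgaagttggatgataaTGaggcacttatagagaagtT
Srp54b: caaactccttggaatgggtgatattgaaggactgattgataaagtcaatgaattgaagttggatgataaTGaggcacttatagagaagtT
Srp54c: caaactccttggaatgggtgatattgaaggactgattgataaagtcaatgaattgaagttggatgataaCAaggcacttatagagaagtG

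Srp54b was at 2.07 and 1.98 CPM with vehicle and at 20.8 and 8.76 CPM with DCA, from 76 and 52 counts and from 674 and 2103 counts. The DCA values were both above the vehicle values, and the log2 fold change was 2.87 (SE 0.58, unadjusted p = 0.0200, adjusted p = 0.998 by edgeR's test). Srp54a was at 5.29 and 3.24 CPM with vehicle and at 9.80 and 11.7 CPM with DCA, again without overlap (log2 fold change 1.33, SE 0.31). Srp54c, with most of the counts, was at 32.6 and 40.1 CPM with vehicle and at 42.1 and 31.6 CPM with DCA, and its libraries overlapped. The 3 genes together were at 40.0 and 45.3 CPM with vehicle and at 72.8 and 52.0 CPM with DCA, a log2 ratio of 0.55 that is smaller than that of Srp54b alone. The share of Srp54b in this sum was 5.18% and 4.38% with vehicle and 28.6% and 16.8% with DCA, and that of Srp54c was 81.6% and 88.5% with vehicle and 57.9% and 60.7% with DCA. How reads that match more than 1 copy were assigned is not given in the sources used here, so the values of the single copies are uncertain, and the sum is free only of the division among them.

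**Figure D3:**
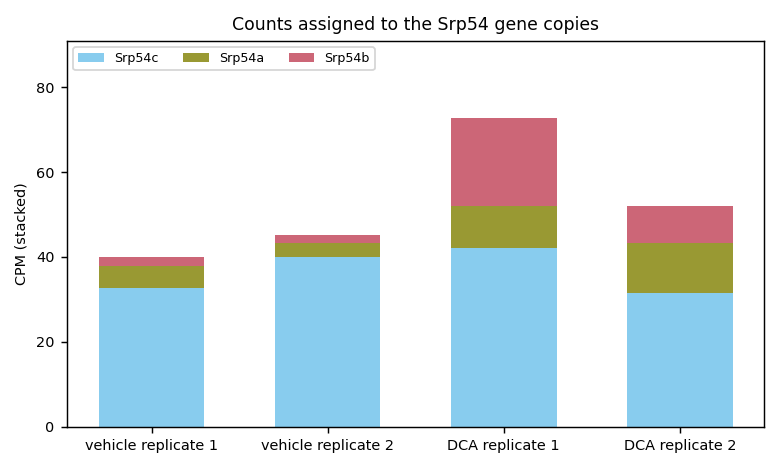
Counts assigned to Srp54c, Srp54a, and Srp54b, stacked, in TMM-normalized CPM from 0, with 1 bar per library. The Srp54c part is 31.6 to 42.1 CPM in every library, while the Srp54b part lies at 1.98 to 2.07 CPM with vehicle and at 8.76 to 20.8 CPM with DCA.

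The SRP receptor, which receives SRP at the ER membrane, is formed by the products of Srpr and Srprb. The GTPase gene Srpr was at 288 and 147 CPM with vehicle and at 174 and 206 CPM with DCA. The gene of its membrane anchor, Srprb, was at 149 and 79.0 CPM with vehicle and at 123 and 139 CPM with DCA. For both genes vehicle replicate 1 was the highest library and vehicle replicate 2 the lowest, and both DCA values lay between them. The log2 fold changes were −0.19 (SE 0.50) and 0.21 (SE 0.46).

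The translocon consists of a channel, Sec61a, and the small subunits Sec61b and Sec61g, and works with Sec62 and Sec63 in posttranslational import. Its 6 genes had a median log2 fold change of 0.42, the highest of the 10 groups, and 3 of them had both DCA libraries above both vehicle libraries (background 18.9%). They added up to 1449 and 1296 CPM with vehicle and to 1287 and 1800 CPM with DCA, so the sums overlapped. This rank was lost when any of 3 libraries was left out, with the group's median at 0.02 without DCA replicate 2, at 0.25 without vehicle replicate 1 (0.52 for the SRP receptor), and at 0.31 without vehicle replicate 2 (0.41 for signal peptidase).

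The channel gene Sec61a1 (chr6:88503607-88518800) was at 678 and 449 CPM with vehicle and at 421 and 493 CPM with DCA (log2 fold change −0.30, SE 0.32). Its paralog Sec61a2 was at 24.6 and 35.6 CPM with vehicle and at 18.9 and 29.4 CPM with DCA (log2 fold change −0.32, SE 0.40). With 1 library left out at a time the value ran from −0.57 to −0.0065 for Sec61a1, nearest 0 without vehicle replicate 1, and from −0.68 to −0.034 for Sec61a2, nearest 0 without vehicle replicate 2. Both had overlapping libraries, and Sec61a1 gave 94.6% ± 2.71 (SD, n = 2) of the counts of the pair with vehicle and 95% ± 0.948 (SD, n = 2) with DCA. The coding sequences of the pair are 78.8% identical and share no 150-base window, so their counts can be told apart over the coding region.

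Sec61b (chr4:47474661-47483233) was at 266 and 303 CPM with vehicle and at 328 and 425 CPM with DCA, for a log2 fold change of 0.40 (SE 0.21, unadjusted p = 0.134 by edgeR's test). Sec61g was at 305 and 361 CPM with vehicle and at 299 and 631 CPM with DCA. DCA replicate 2 alone was high for Sec61g, and the log2 fold change of 0.48 was −0.16 without that library. Sec62 was at 131 and 81.8 CPM with vehicle and at 143 CPM in both DCA libraries (log2 fold change 0.43, SE 0.34). Sec63, whose J domain engages the ER chaperone BiP, was at 44.2 and 64.7 CPM with vehicle and at 76.6 and 78.1 CPM with DCA (log2 fold change 0.51, SE 0.27). Both DCA values were above both vehicle values for Sec61b, Sec62, and Sec63, and none of the 3 passed the test (adjusted p = 0.998 by edgeR's test for each). Leaving out 1 library at a time gave log2 fold changes of 0.20 to 0.56 for Sec61b, 0.13 to 0.78 for Sec62, and 0.23 to 0.80 for Sec63.

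Within the channel the level order depended on the length used. Per kilobase of coding sequence, the vehicle mean was 1634 CPM for Sec61g, 988 CPM for Sec61b, and 395 CPM for Sec61a1, with the vehicle libraries at 1496 and 1772, at 924 and 1052, and at 475 and 315 CPM per kilobase. These do not overlap, and Sec62 at 89.1, Sec63 at 23.9, and Sec61a2 at 21.1 CPM per kilobase were lower, the last pair with overlapping libraries. Per kilobase of transcript, Sec61b at 505 CPM led, and Sec61g and Sec61a1 were at 179 and 178 CPM per kilobase, with overlapping vehicle libraries.

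The TRAP complex sits beside the channel and helps some signal sequences to open it. Its 4 genes summed to 1189 and 1434 CPM with vehicle and to 1127 and 1551 CPM with DCA, with overlapping libraries for the sum and for each gene. Ssr3, the most abundant, was at 369 and 441 CPM with vehicle and at 329 and 487 CPM with DCA (log2 fold change 0.01, SE 0.31). Ssr1, Ssr2, and Ssr4 had log2 fold changes of −0.14, 0.06, and 0.11, and all 4 intervals lay within 2-fold.

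The signal peptidase genes were the most abundant group, at 3454 and 3455 CPM with vehicle and at 3324 and 3845 CPM with DCA in sum. Spcs3 (chr8:54520433-54529998), an accessory subunit, was at 1631 and 1146 CPM with vehicle and at 1338 and 1457 CPM with DCA, both DCA values lying between the vehicle values. Its log2 fold change was 0.01 (SE 0.26). Per kilobase of coding sequence Spcs3 was also the highest of all these genes with vehicle, at 2571 CPM, followed by Sec61g at 1634, Spcs2 at 1267, Srp9 at 1153, Sec11c at 1102, and Tmed2 at 1031 CPM. The vehicle libraries of Spcs2, Srp9, Sec11c, and Tmed2 overlapped on this scale. Per kilobase of transcript Sec11c led at 738 CPM, and Spcs3 was at 401 CPM.

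Sec11a and Sec11c encode the alternative catalytic subunits that cut off the signal sequence. Sec11c was at 557 and 712 CPM with vehicle and at 664 and 861 CPM with DCA, and Sec11a at 232 and 323 CPM with vehicle and at 293 and 358 CPM with DCA. Sec11c took 70.6% and 68.8% of the counts of the pair with vehicle and 69.4% and 70.6% with DCA. The balance of the pair was thus close in all 4 libraries. Spcs1 and Spcs2 had log2 fold changes of 0.01 and −0.10. All 5 intervals of the group lay within 2-fold, and no gene of it had separated libraries.

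**Figure D4:**
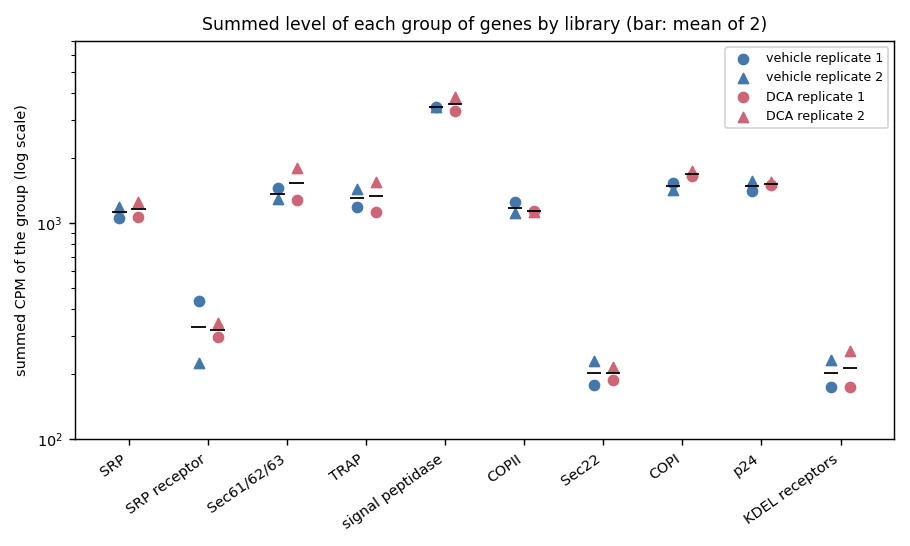
Summed TMM-normalized CPM of the genes of each of the 10 groups on a log axis, with 1 point per library, circles for replicate 1 and triangles for replicate 2, vehicle in blue and DCA in red, and a bar for the mean of the 2 libraries of a treatment. The COPI coat, at 1534 and 1431 CPM with vehicle and at 1647 and 1743 CPM with DCA, is the group whose treatments do not overlap.

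COPII vesicles bud from the ER when the GTPase Sar1 recruits the inner coat of Sec23 and Sec24, which selects cargo, and the outer coat of Sec13 and Sec31, at exit sites marked by Sec16. The 14 COPII genes summed to 1249 and 1113 CPM with vehicle and to 1144 and 1124 CPM with DCA, and the libraries overlapped for each of the 12 that passed the filter. Sar1a, the most abundant, was at 302 and 229 CPM with vehicle and at 190 and 234 CPM with DCA (log2 fold change −0.32, SE 0.25). Sar1b was at 67.2 and 87.8 CPM with vehicle and at 53.9 and 79.7 CPM with DCA. The ratio of the paralogs was similar in the treatments, with Sar1a at 77.0% ± 6.77 (SD, n = 2) of their counts with vehicle and 76.3% ± 2.34 (SD, n = 2) with DCA.

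For the inner coat, Sec23b was the main paralog, at 192 and 146 CPM with vehicle and at 165 and 225 CPM with DCA, against 36.4 and 37.5 CPM and 32.8 and 41.3 CPM for Sec23a. Of the cargo-selecting Sec24 paralogs, Sec24c was at 148 and 50.8 CPM with vehicle and at 75.2 and 83.8 CPM with DCA, a vehicle ratio of 2.92 that is among the largest of these genes. Sec24d was at 118 and 68.5 CPM with vehicle and at 75 and 37.9 CPM with DCA, with a log2 fold change of −0.73 (SE 0.62). Vehicle replicate 1 was the highest library for both, and DCA replicate 1 was above vehicle replicate 2, so neither separated the treatments. Sec24b was at 33.7 and 14.7 CPM with vehicle and at 39.8 and 23.1 CPM with DCA, and Sec24a at 22.7 and 28.2 CPM and at 23.1 and 19.7 CPM. Sec24d held 36.6% and 42.2% of all Sec24 counts with vehicle and 35.2% and 23.1% with DCA, values that do not overlap but whose DCA libraries lie farther apart than the treatments' nearest ones. The share of Sec24b did not overlap in the other direction, at 10.4% and 9.07% with vehicle and at 18.7% and 14% with DCA.

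The outer coat and exit-site genes were each carried by 1 paralog. Sec31a was at 94.9 and 150 CPM with vehicle and at 158 and 124 CPM with DCA, while Sec31b had 13 and 0 counts with vehicle and 5 and 33 counts with DCA. Sec16a was at 38.3 and 36.2 CPM with vehicle and at 47.0 and 26.9 CPM with DCA. Sec16b had 0 counts in both vehicle libraries, which allows levels of up to 0.0819 and 0.114 CPM (3 counts, counting error only), and 30 and 14 counts with DCA, or 0.928 and 0.0583 CPM. Only DCA replicate 1 exceeded the limits that the vehicle libraries allow, so no fold is given. Sec13 and Sec23ip had log2 fold changes of 0.16 and 0.15.

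The Sec22 genes encode a SNARE of ER-Golgi transport, Sec22b, and its relatives. Sec22b was at 149 and 170 CPM with vehicle and at 149 and 173 CPM with DCA (log2 fold change 0.02, SE 0.14). Sec22a was at 18.5 and 52.3 CPM with vehicle and at 32.3 and 38.5 CPM with DCA, the vehicle libraries lying 2.82 times apart and the DCA libraries between them. Sec22c was low, at 10.6 and 7.28 CPM with vehicle and at 6.71 and 4.23 CPM with DCA, without overlap (log2 fold change −0.71, SE 0.37, unadjusted p = 0.464 by edgeR's test).

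COPI, the coat of retrograde vesicles, was the only 1 of the 10 groups whose sum was higher in both DCA libraries. It lay at 1534 and 1431 CPM with vehicle and at 1647 and 1743 CPM with DCA, a log2 ratio of 0.19. The order was the same with total-count scaling (log2 ratio 0.18) and with DCA replicate 2 thinned to the depth of the others (0.19). Of its 8 genes, 5 had both DCA libraries above both vehicle libraries (Copa, Copb2, Cope, Copz1, and Copz2) and 0 had both below, where the background was 18.9% above and 14.5% below. The group's median log2 fold change was 0.33, from 0.29 to 0.33 over the alternatives with all libraries, and 0.19 to 0.30 with 1 library left out. None of the 8 passed the test, and the sum was not tested.

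Copa (chr1:172082529-172122332), the largest subunit of the coat, was at 147 and 107 CPM with vehicle and at 255 and 158 CPM with DCA. Its log2 fold change of 0.70 (SE 0.41, unadjusted p = 0.0695, adjusted p = 0.998 by edgeR's test) became 1.01 when DCA replicate 2 was left out and 0.31 when DCA replicate 1 was. Cope, which binds Copa in the coat, was at 344 and 396 CPM with vehicle and at 427 and 525 CPM with DCA (log2 fold change 0.36, SE 0.18). Copb2 was at 226 and 218 CPM with vehicle and at 255 and 240 CPM with DCA (log2 fold change 0.16, SE 0.05), and Copz1 at 108 and 131 CPM with vehicle and at 143 and 149 CPM with DCA (0.29, SE 0.14).

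The other COPI genes did not separate, apart from the low Copz2. Copb1 was at 366 and 338 CPM with vehicle and at 276 and 403 CPM with DCA, and Copg1 at 314 and 221 CPM with vehicle and at 261 and 225 CPM with DCA. Copg2 took 8.39% and 7.44% of the Copg counts with vehicle and 8.64% and 14.8% with DCA. Copz2 was at 0.191 and 2.82 CPM with vehicle and at 4.92 and 4.2 CPM with DCA, and its log2 fold change of 1.60 was 0.66 when vehicle replicate 1 was left out and 4.56 when vehicle replicate 2 was. Copz1 gave at least 96.7% of the Copz counts in every library.

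The p24 proteins are cargo receptors that cycle in COPII and COPI vesicles. The Tmed genes, grouped here by symbol, summed to 1405 and 1573 CPM with vehicle and to 1502 and 1551 CPM with DCA. Tmed2, the most abundant, was at 589 and 655 CPM with vehicle and at 638 and 619 CPM with DCA (log2 fold change 0.01, SE 0.08). Its partner Tmed10 was at 238 and 281 CPM with vehicle and at 291 and 242 CPM with DCA, and the pseudogene copy Tmed10-ps, which matches the Tmed10 transcript at 99.4% of positions and shares 35.6% of its 150-base windows with it, was at 27.5 to 35.7 CPM. The 2 genes together were at 265 and 314 CPM with vehicle and at 324 and 278 CPM with DCA.

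Tmed7 and Tmed8 had the lowest fold changes of the Tmed genes. Tmed8 was placed in this group by its symbol alone, which does not show that it encodes a p24 cargo receptor. Tmed8 (chr12:87166242-87200457) was at 63.1 and 61.4 CPM with vehicle and at 35 and 38.3 CPM with DCA. Its log2 fold change was −0.76 (SE 0.07, unadjusted p = 0.0518, adjusted p = 0.998 by edgeR's test). Tmed7 was at 69.6 and 61.8 CPM with vehicle and at 40.8 and 43.8 CPM with DCA, for a log2 fold change of −0.64 (SE 0.10, unadjusted p = 0.0834). Libraries of a treatment lay close together for both genes, and both DCA values were below both vehicle values. With 1 library left out at a time, the value stayed between −0.83 and −0.72 for Tmed8 and between −0.72 and −0.58 for Tmed7.

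The remaining Tmed genes gave no separation except Tmed3, at 230 and 208 CPM with vehicle and at 257 and 287 CPM with DCA (log2 fold change 0.32, SE 0.11). Tmed4, Tmed5, and Tmed9 had log2 fold changes of 0.31, 0.38, and −0.32. Tmed1 was at 0.164 CPM in vehicle replicate 1, from 6 counts, and at 26.8 CPM in vehicle replicate 2, with the DCA libraries at 11.7 and 17.3 CPM. The vehicle libraries were 163 times apart, the largest ratio between libraries of 1 treatment among these genes, and no direction can be read for Tmed1. Tmed6 had 2 counts in vehicle replicate 2 and 0 in the other libraries, and Tmed11 had 0 in every library, which allows at most 0.0125 to 0.114 CPM.

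KDEL receptors retrieve ER chaperones from the Golgi. Kdelr2 was the main gene, at 122 and 187 CPM with vehicle and at 133 and 205 CPM with DCA, and held 75.1% ± 7.41 (SD, n = 2) of the Kdelr counts with vehicle and 78.5% ± 2.81 (SD, n = 2) with DCA. Kdelr3 was at 27.7 and 23.6 CPM with vehicle and at 14.7 and 20.1 CPM with DCA, with both DCA values below both vehicle values (log2 fold change −0.56, SE 0.24, unadjusted p = 0.291 by edgeR's test). Kdelr1 separated the other way, at 24.6 and 22 CPM with vehicle and at 26.0 and 29.6 CPM with DCA (log2 fold change 0.26, SE 0.12).

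The promoters were searched because XBP1 and ATF6, transcription factors of the unfolded protein response, bind known DNA elements before genes of this route. A window of 250 bases before and 50 after the start site, from RefSeq on GRCm38.p6, was found for 54 of the 65 genes and for 27025 genes in all. The unfolded protein response element core TGACGTGG was searched with its reverse complement CCACGTCA. It was in the windows of 6 of the 54 genes (11.1%), compared with 0.714% of all genes. Among genes that passed the filter, 5 of 51 early secretory genes (9.80%) had it, compared with 1.03% of the 8801 genes tested that had a window. The 6 genes are Copb1, Copb2, Kdelr3, Sec16b, Sec23a, and Sec24d. The match, in capitals, is shown with 11 bases on either side, because its letters carry the comparison and its place differs among the genes.
Copb1: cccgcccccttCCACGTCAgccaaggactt
Copb2: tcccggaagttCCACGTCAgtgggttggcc
Kdelr3: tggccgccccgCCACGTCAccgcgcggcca
Sec16b: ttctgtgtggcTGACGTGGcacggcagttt
Sec23a: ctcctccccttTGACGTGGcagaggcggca
Sec24d: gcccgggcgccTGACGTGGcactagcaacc

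These stretches of 30 bases lie on the minus strand at chr7:114254690-114254719 for Copb1 and chr12:59011993-59012022 for Sec23a. On the plus strand they lie at chr9:98563713-98563742 for Copb2, chr15:79516367-79516396 for Kdelr3, chr1:157506741-157506770 for Sec16b, and chr3:123267459-123267488 for Sec24d. The match starts 28 bases before the RefSeq start site for Copb1, 7 for Copb2, 30 for Kdelr3, 44 for Sec16b, and 26 for Sec24d, and 6 bases after it for Sec23a. In GENCODE M21 the match of Kdelr3 overlaps no exon of the gene, and the other 5 overlap an annotated UTR in an exon of theirs. The ER stress elements, CCAAT followed after 9 bases by CCACG and ATTGG followed after 1 base by CCACG, searched on both strands, were in 0 of the 54 windows, compared with 0.137% and 0.0444% of all genes. The shorter ACGTG, which is contained in the unfolded protein response element core and matches many factors, was in 64.8% of the 54, compared with 21.8% of all genes. Among genes that passed the filter the shares were 66.7% of the 51 early secretory genes and 30.3% of all tested. The mean GC content was 58.8% in the windows of these genes, 60.7% in those of all genes tested, and 53.8% in all windows. A match is a sequence only and does not show binding.

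The genes with this match had fold changes of both signs. Kdelr3 and Sec24d had log2 fold changes of −0.56 and −0.73, Copb1 and Sec23a of −0.05 and 0.01, and Copb2 of 0.16, while Sec16b was below the filter. Of the 91 genes tested that had the match, 43 had a positive and 48 a negative value, with a median of −0.02, and 3 had an unadjusted p under 0.05. Of the 8801 tested genes with a window, 4488 had a positive and 4313 a negative value, with a median of 0.01, and 386 had an unadjusted p under 0.05.

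Other genes of the pathway were compared as lists. Of the 12 tested genes of the oligosaccharyltransferase, the 10 of the ER membrane complex, the 7 of tail-anchored protein insertion, the 9 translocon partners, the 22 coat partners and cargo receptors, the 22 tethers and SNAREs, and the 15 ER chaperones, 0 had an unadjusted p under 0.05 in either direction. The background was 4.28% of all genes tested. The median log2 fold changes of the lists were 0.11, 0.05, 0.06, 0.08, 0.09, 0.04, and 0.01, compared with 0.01 over all genes tested. Arcn1, which encodes the remaining COPI subunit and is outside the symbol rule, was at 273 and 165 CPM with vehicle and at 248 and 234 CPM with DCA, overlapping.

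Among the 11 tested regulators of the unfolded protein response, 1 was higher and 1 lower at an unadjusted p under 0.05 (background 2.59% higher and 1.7% lower), and 0 passed the adjusted threshold. Ddit3, which encodes the stress factor CHOP, was at 8.95 and 9.87 CPM with vehicle and at 25.2 and 43.8 CPM with DCA (log2 fold change 1.87, SE 0.39, unadjusted p = 0.0112, adjusted p = 0.998 by edgeR's test). Eif2ak3, which encodes the sensor PERK, was at 14 and 30.8 CPM with vehicle and at 4.21 and 4.76 CPM with DCA (log2 fold change −2.32, SE 0.55, unadjusted p = 0.0161, adjusted p = 0.998 by edgeR's test). By DESeq2 the adjusted p was 0.163 for Ddit3 and 0.160 for Eif2ak3. Xbp1, whose spliced product drives many early secretory genes in plasma cells, was at 387 and 344 CPM with vehicle and at 372 and 357 CPM with DCA, both DCA values lying between the vehicle values.

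The ratio between the libraries of a treatment was related to transcript length among the early secretory genes, and more weakly over the table. Across the 58 early secretory genes with at least 1 CPM in every library and a known length, the log2 ratio of DCA replicate 2 to DCA replicate 1 had a Spearman correlation of −0.42 with transcript length, against −0.078 across 8743 genes of the table. The ratio of vehicle replicate 1 to vehicle replicate 2 gave 0.27 and 0.16. Genes of 1 library share its depth and preparation and are not independent replicates, so this is a description. Srp19, with a transcript of 876 bases, was among the genes highest in DCA replicate 2 relative to DCA replicate 1 (325 against 197 CPM), and Sec16a, with one of 8737 bases, among those lowest (26.9 against 47.0 CPM). The part of this trend in the fold changes was not tested.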

How the data were processed

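The authors made full-length (SMART-Seq) cDNA, trimmed the paired reads (cutadapt 1.9), and aligned them (HISAT2 2.2.1) to the mm10 genome. The deposited table holds whole-number read counts per Entrez gene, although its name refers to FPKM. The counting tool, annotation, and strand setting are not given in the sources used here. Counts were analyzed with edgeR 4.0.16 in R 4.3.3 (TMM, quasi-likelihood, two-sided, Benjamini-Hochberg adjustment) over genes averaging 1 CPM or more. Standard errors were computed from log2(CPM + 1) of the libraries and stand beside edgeR's log2 fold changes, which are on another scale. The scales part for low genes, so that the change of Srp54b was 2.27 on log2(CPM + 1) and 2.87 by edgeR. For such genes the standard error is understated. Each standard error rests on 2 libraries per treatment, without moderation over genes, so a small one is imprecise. Intervals are from limma 3.58.1 on log2(CPM + 1). Alternatives included DESeq2 1.42.0, other scalings and filters, DCA replicate 2 thinned at random to 32099709 counts, a replicate block, and leaving out each library. The test was also run on simulated counts with 200 genes changed by 2 on the log2 scale. The outcome is not given here, so this run does not show what the test can detect in these libraries. Lengths are from GENCODE M21 principal transcripts. The aligned sequences are the longest of each gene's protein-coding or processed pseudogene transcripts in GENCODE M21, aligned with Biopython 1.88.

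The rule for the genes, which reads symbols alone, and the lists were chosen with earlier results of these data known. Named with values were all translocon genes, the most abundant gene of each group, genes with an unadjusted p under 0.05, the 5 largest separated changes per direction at 10 CPM or more (only 3 were lower), the 3 largest ratios between replicates, genes below the filter, and all paralog sets. Copb1, Copb2, Copz1, Ssr1, Ssr2, Ssr4, Tmed3, Xbp1, Arcn1, and other genes given with a fold change alone were added for completeness of their groups. Counting limits cover sampling only, since amplified reads are not independent molecules. Some cell type markers are not reported here.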

Additional observations from a re-analysis of the deposited data

How the results depend on the processing

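No early secretory gene passed an adjusted p of 0.05 under any alternative run (0 in each), while over all genes the count was 0 with edgeR, 36 of 17706 without the filter on low counts, and 127 of 10962 with DESeq2. Unadjusted p under 0.05 was reached by 1 to 3 early secretory genes with all libraries and by 1 to 4 with 1 left out. Their median log2 fold change of 0.06 was 0.02 with median-of-ratios scaling and with DESeq2 and 0.04 to 0.06 under the other alternatives with all libraries, and from −0.04 without DCA replicate 2 to 0.14 without vehicle replicate 2. Srp54b stayed positive, at 2.05 to 2.87 with all libraries and 2.09 to 3.36 with 1 left out. Whether the treatments overlapped was the same for each group sum under total-count scaling and thinning, although the order of single libraries changed in some groups. A lone library was assumed to vary like the other treatment's. Copz2 has no value at a mean of at least 5 CPM, and Tmed11 none at all.

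Same-numbered libraries deviated from their treatment means with a correlation of 0.0203 across genes. With 2 libraries per treatment this does not settle whether libraries of the same number shared a mouse, culture, or preparation. With the replicate number as a block, 0 early secretory genes passed the adjusted threshold, 3 had an unadjusted p under 0.05, the median was 0.05, and 2 genes changed sign, Sec23a to −0.0037 and Ssr3 to −0.0097.

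With all libraries kept, 11 genes changed sign under some alternative, each with a log2 fold change of at most 0.075 in size. With median-of-ratios scaling the log2 fold change was −0.035 for Sec22a, −0.018 for Sec22b, −0.029 for Sec23a, −0.030 for Spcs1, −0.022 for Spcs3, −0.021 for Srp14, −0.010 for Srp54c, −0.024 for Ssr3, and −0.018 for Tmed2, and with DESeq2 it was −0.035, −0.018, −0.028, −0.030, −0.022, −0.021, −0.011, −0.024, and −0.018. Total-count scaling gave −0.0016 for Sec22a, −0.010 for Sec23a, −0.0038 for Spcs1, −0.0100 for Spcs3, −0.0053 for Srp14, and −0.0036 for Ssr3. Thinning gave −0.015 for Sec22b, −0.0069 for Sec23a, −0.0041 for Spcs1, −0.011 for Srp14, and −0.019 for Srp54c, limma −0.0035 for Sec23a and −0.0097 for Ssr3, and quantile normalization −0.017 for Srp14, −0.010 for Srp19, −0.022 for Ssr2, −0.084 for Ssr3, and −0.037 for Tmed2.

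Leaving out 1 library at a time gave ranges that crossed 0 for 33 of the 61 genes. They ran from −0.37 to 0.10 for Copg1, −0.22 to 0.47 for Kdelr2, −0.53 to 0.021 for Sar1b, −0.020 to 0.48 for Sec11a, −0.49 to 0.33 for Sec16a, −0.59 to 0.93 for Sec22a, −0.11 to 0.11 for Sec22b, −0.17 to 0.14 for Sec23a, −0.033 to 0.40 for Sec23b, −0.10 to 1.06 for Sec24b, −0.90 to 0.61 for Sec24c, −0.13 to 0.57 for Sec31a, −0.16 to 0.90 for Sec61g, −0.23 to 0.25 for Spcs3, −0.22 to 0.21 for Srp54c, −0.20 to 0.14 for Srp9, −0.60 to 0.34 for Srpr, −0.30 to 0.25 for Ssr3, −0.92 to 6.45 for Tmed1, −0.35 to 0.18 for Copb1, −0.072 to 0.38 for Sec13, −0.55 to 0.61 for Sec23ip, −0.35 to 0.41 for Spcs1, −0.063 to 0.050 for Srp14, −0.33 to 0.37 for Srp19, −0.098 to 0.63 for Srp68, −0.18 to 0.70 for Srprb, −0.35 to 0.064 for Ssr1, −0.21 to 0.26 for Ssr2, −0.13 to 0.30 for Ssr4, −0.12 to 0.16 for Tmed10, −0.051 to 0.69 for Tmed5, and −0.092 to 0.089 for Tmed2. The cause was not tested.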
